A study of Mus musculus with 18 samples.

Results

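The nuclear genes of the respiratory chain and of ATP synthase were followed in purified splenic B cells of mice. Members were chosen by name: the NCBI gene IDs of the expression table were matched to RefSeq symbols, and protein-coding genes were kept whose symbol begins with Ndufa (not Ndufaf), Ndufb, Ndufc, Ndufs, Ndufv, Uqcr, Cox4 to Cox8 or Atp5, together with *Sdha* to *Sdhd*. This gave 83 of the 16545 genes in the table: 36 of complex I, 4 of complex II, 8 of complex III, 18 of complex IV and 17 of complex V. Another 5 genes that fit by name, *Ndufb1*, *Ndufb4b*, *Ndufb4c*, *Cox7b2* and *Cox8c*, had no row and were not analysed here, nor were the subunits encoded by mitochondrial DNA.

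The mice carried either a B-cell deletion of *Zbtb24* (B-CKO) or were controls (CON). *Zbtb24* encodes a zinc finger protein mutated in an immunodeficiency with centromere instability and facial anomalies. Per the study's methods, B-CKO mice carried 1 allele of a Cre expressed in B cells, with both *Zbtb24* alleles loxp-flanked around exon 2, which holds the translation start, and controls were littermates with the same Cre and wild-type *Zbtb24* unless stated otherwise. Both were on a C57BL/6 background, and all libraries labelled CON or B-CKO would then share the Cre allele. The deletion takes place in B cells, from the stage at which these first express the Cre. The cells were kept in culture with LPS, a bacterial lipopolysaccharide that activates B cells through TLR4, and RNA was taken on D0 (0 h), D1 (24 h) and D2 (48 h). There were 18 libraries in 6 groups of 3, with 1 mouse per replicate by the methods. Whether libraries of a genotype with the same number came from the same mouse on all 3 days is not given in the sources used here. The age of these mice was not given in the sources used here.

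As background, the respiratory chain sits in the inner mitochondrial membrane. Complex I takes electrons from NADH and complex II from succinate. Both pass them through ubiquinone to complex III, and cytochrome c carries them on to complex IV, where oxygen is reduced. The protons that complexes I, III and IV move out of the matrix flow back through complex V, the ATP synthase, whose c ring turns in the membrane while its F1 head makes ATP. Apart from complex II, the complexes have core subunits that carry out the reaction and accessory subunits that surround them, and complex IV has several subunits with a broadly used form and another used mainly in heart and skeletal muscle, lung or testis. Resting B cells are small and have few mitochondria, and they enlarge when activated.

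Levels are given in FPKM, a fragment count corrected for transcript length and for the mapped reads of a library, so they compare genes per length within a library. Tests were made with limma on log2(FPKM + 1) across all genes above 0 in any library of the comparison, and a gene was called at a Benjamini-Hochberg adjusted p below 0.05 over all genes tested. A log2 difference on this scale is smaller than the change of the FPKM itself for genes near or below 1 FPKM. Of the 83 members, 78 had a mean of at least 1 FPKM over the 18 libraries and 81 reached that mean in some group. The 5 below were *Cox6a2* at 0.887 FPKM, *Cox6b2* at 0.861 FPKM, *Cox4i2* at 0.487 FPKM, *Ndufa4l2* at 0.102 FPKM and *Cox8b* at 0.0361 FPKM, all forms used mainly in other tissues or in low oxygen.

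The targeted gene was lower in each B-CKO library than in each CON library of its day. *Zbtb24* was at 37.05, 49.56 and 49.62 FPKM in the CON libraries of D0 and at 10.53, 12.57 and 14.33 FPKM in those of B-CKO. It lay at 15.68 to 18.77 against 10.39 to 11.66 FPKM on D1, and at 13.42 to 17.11 against 9.23 to 11.34 FPKM on D2. *Cdca7*, which encodes a chromatin factor mutated in the same syndrome, was at 80.02 to 85.51 FPKM in CON and 19.32 to 22.11 FPKM in B-CKO on D1. The 8 B cell markers summed to between 2120 and 5546 FPKM in a library. Markers of other cells were low: the T cell list (9 genes) reached at most 36.8 FPKM, the myeloid list (8 genes) 18.4 FPKM, the NK list (3 genes) 2.35 FPKM, the platelet list (4 genes) 0.8 FPKM and the erythroid list (6 genes) 71.1 FPKM.

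The first question was how the respiratory chain moved when B cells were activated. In CON cells, 74 of the 83 members were higher on D1 than on D0 and 1 was lower, against 26.7% of all genes higher and 30.7% lower. The median member change was 1.10 on the log2 scale, while the median over all genes tested was -0.02. The rise covered all complexes, with 34 of 36 members of complex I higher (median log2 change 1.12), 4 of 4 of complex II (0.91), 7 of 8 of complex III (1.16), 12 of 18 of complex IV (0.89) and 17 of 17 of complex V (1.23). B-CKO cells gave the same count, 74 higher and 1 lower of 82 members tested, against 27.5% and 32.3% of all genes, with a median of 1.14. All 74 that rose in CON also rose in B-CKO.

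Summed over all members, the level was 5600 to 6271 FPKM in the CON libraries of D0, 12395 to 13173 FPKM on D1 and 13313 to 13828 FPKM on D2. In B-CKO it was 5684 to 6378, 13093 to 13436 and 13226 to 14745 FPKM. The members thus made up 1.24% to 1.35% of all FPKM on D0, 2.41% to 2.55% on D1 and 2.52% to 2.62% on D2. The D0 libraries did not overlap those of the later days in any complex. Complex V had the highest sum and complex II the lowest in every library. Complex I came next after complex V in all 6 libraries of D1, and complex IV in all 6 of D2.

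**Figure D1:**
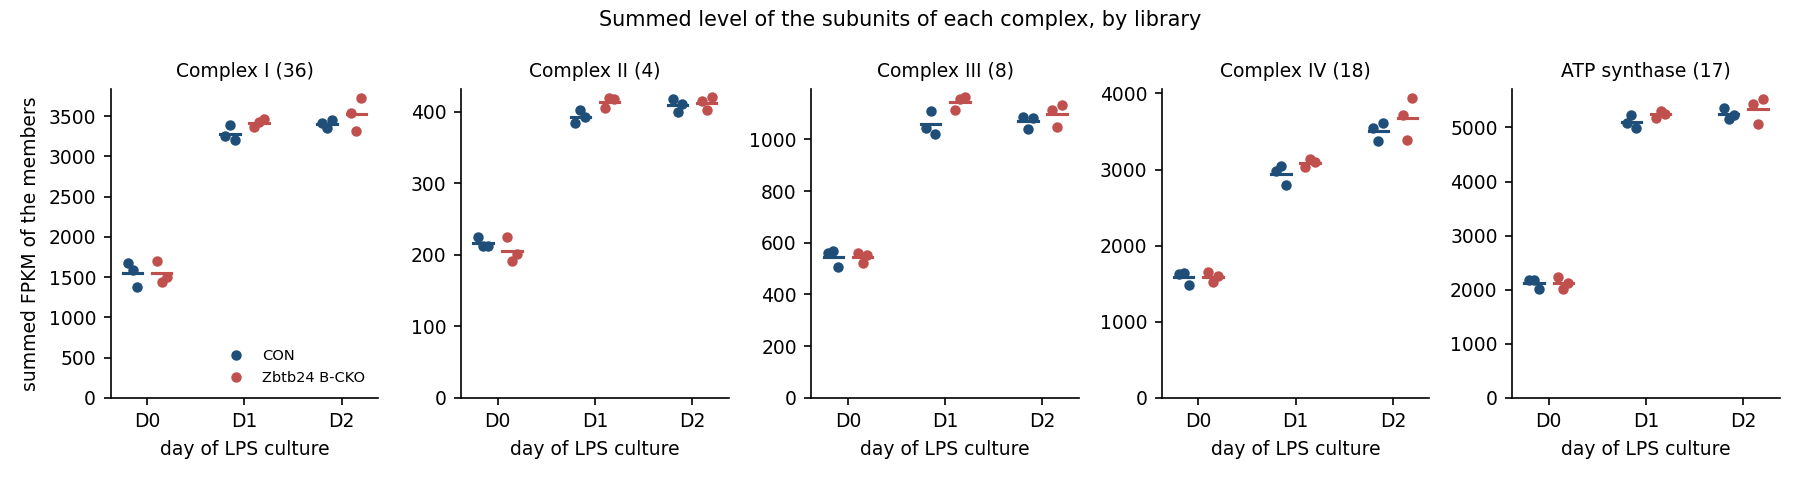
Summed FPKM of the members of each complex (vertical axis) in each library, by day and genotype; points are libraries and lines group means. In every complex the 6 libraries of D0 lie below the 12 libraries of D1 and D2, and the CON and B-CKO libraries of a day lie close to each other.

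Other measures moved between D0 and D1 as well. The sum over 9 immediate early genes, which respond to cell handling, was 2955 to 4477 FPKM on D0 and 155 to 267 FPKM on D1 and D2. The 8 B cell markers summed to 4228 to 5546 FPKM on D0 and 2120 to 2615 FPKM on D1, and the T cell list fell from between 24.9 and 36.8 FPKM to between 9.93 and 15.4 FPKM. The sum over all genes was 453150 to 472676 FPKM on D0 and 515196 to 526457 FPKM on D1. Their part in the rise of the members was not tested. In bulk RNA, a different number of cells of a type and a different amount of RNA per cell cannot be told apart, and with no cells cultured without LPS, the effect of LPS and that of time in culture cannot be told apart either.

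The size of the rise differed between the roles of the subunits. In complex V, the 3 genes of the c ring had a median log2 change of 1.52 on D1 against D0 in CON, the 4 of the stalk 1.40, the 5 of the F1 head 1.07 and the 5 other membrane subunits 1.03. In complex I, the 7 core subunits, which carry the flavin and iron-sulfur clusters or line the quinone site, had a median of 0.90 and the 29 accessory subunits 1.24. In complex III, *Uqcrc1*, *Uqcrc2* and *Uqcrfs1*, grouped as core without regard to who carries out the reaction, had 1.02 and the 5 small subunits 1.33. In complex IV the 11 broadly used subunits had 1.09. These medians are descriptions, since members of a complex share the same 6 libraries.

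**Figure D2:**
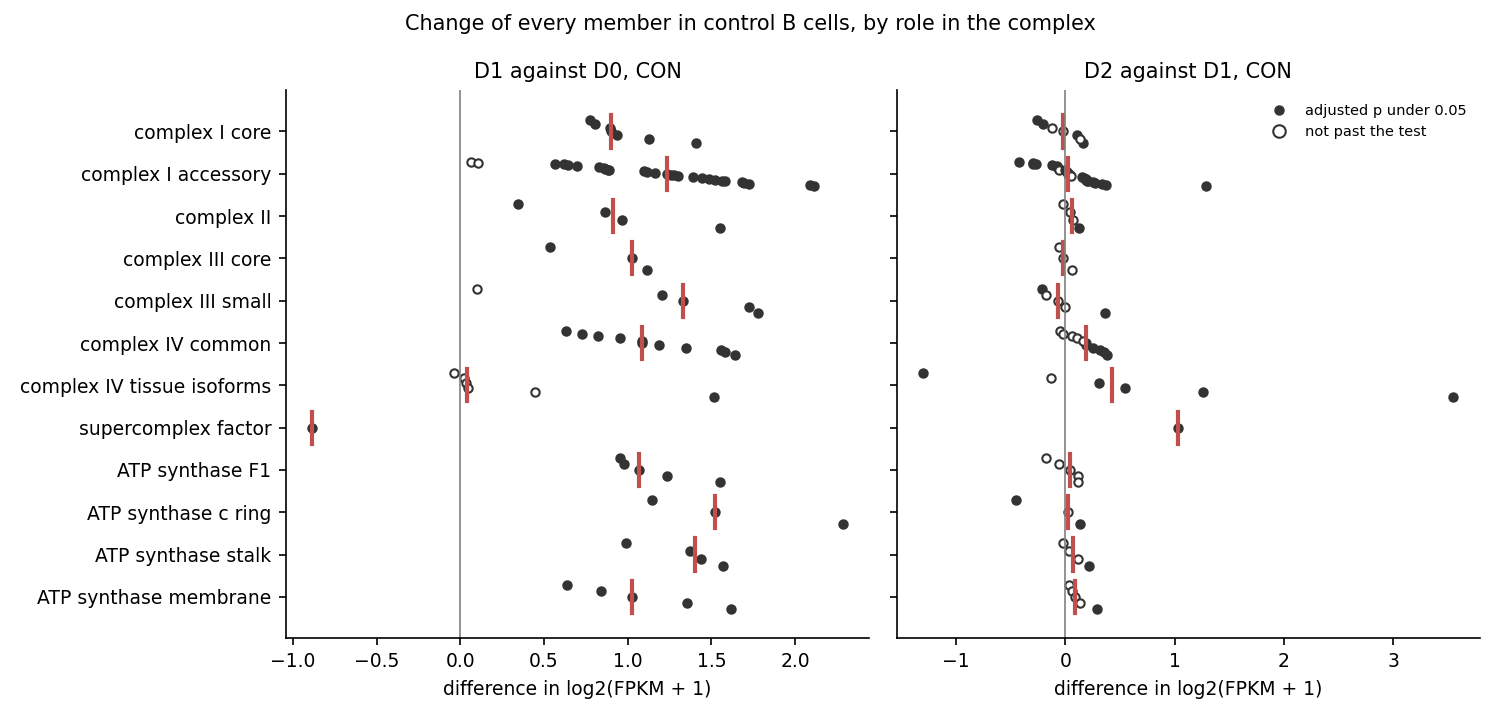
Log2 change of each member between D0 and D1 and between D1 and D2 in CON cells (horizontal axes, log2(FPKM + 1) scale), by the role of the subunit; each point is a gene, filled where called, and vertical bars are medians. Nearly all members lie above 0 in the first step, and in the second most lie close to 0 with *Cox7a1*, *Ndufv3*, *Cox4i2* and *Cox7a2l* furthest to the right and *Cox6a2* furthest to the left.

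*Atp5b*, the catalytic beta subunit of the F1 head, had the highest mean level of all members. It was at 307.84, 299.32 and 292.87 FPKM in the CON libraries of D0, 858.57, 899.03 and 885.12 FPKM on D1, and 917.44, 908.96 and 891.82 FPKM on D2. In B-CKO it was at 335.85, 307.64 and 294.54 FPKM, then 918.17, 914.6 and 928.46 FPKM, then 926.86, 885.52 and 901.62 FPKM. The D0 libraries of both genotypes lay well below all later ones, and D1 and D2 differed little. The log2 change from D0 to D1 was 1.55 ± 0.05 (SE, n = 3 against 3, limma adjusted p = 6.51e-06) in CON.

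The largest rise in complex V on D1 was that of *Atp5g1*, 1 of the 3 genes for the c subunit, which differ in their targeting peptides and give the same mature protein. In CON it went from 48.85, 47.34 and 41.74 FPKM on D0 to 227.47, 228.73 and 225.13 FPKM on D1, and then to 180.96, 149.94 and 166.77 FPKM on D2. B-CKO libraries were at 51.13, 44.33 and 47.32, then 242.81, 242.19 and 240.69, then 175.33, 160.26 and 166.33 FPKM. No group overlapped that of another day in either genotype. In CON the log2 change was 2.28 ± 0.07 (SE, limma adjusted p = 5.88e-06) for the first step and -0.46 ± 0.07 (SE, adjusted p = 0.00157) for the second. *Atp5g2* and *Atp5g3* rose by 1.15 and 1.52 in the first step.

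The make-up of the c subunit transcripts changed with it. In CON, *Atp5g1* gave 11.6% ± 0.717 (SD, n = 3) of the summed FPKM of the 3 genes on D0, 20.9% ± 0.305 on D1 and 15.4% ± 1.11 on D2. *Atp5g2* was at 54.8% ± 2.75, 44.1% ± 0.637 and 45.4% ± 1.24, and *Atp5g3* at 33.5% ± 2.04, 35.0% ± 0.697 and 39.1% ± 0.132. B-CKO cells followed the same course, with *Atp5g1* at 11.8%, 22.4% and 15.6%. The summed level of the 3 genes was 395 FPKM on D0, 1089 FPKM on D1 and 1073 FPKM on D2 in CON, so the share of *Atp5g1* was lower on D2 than on D1 at a similar sum. Because their coding sequences are alike and processed copies exist, the split of reads between these genes is uncertain, as it is for other members with pseudogenes.

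**Figure D3:**
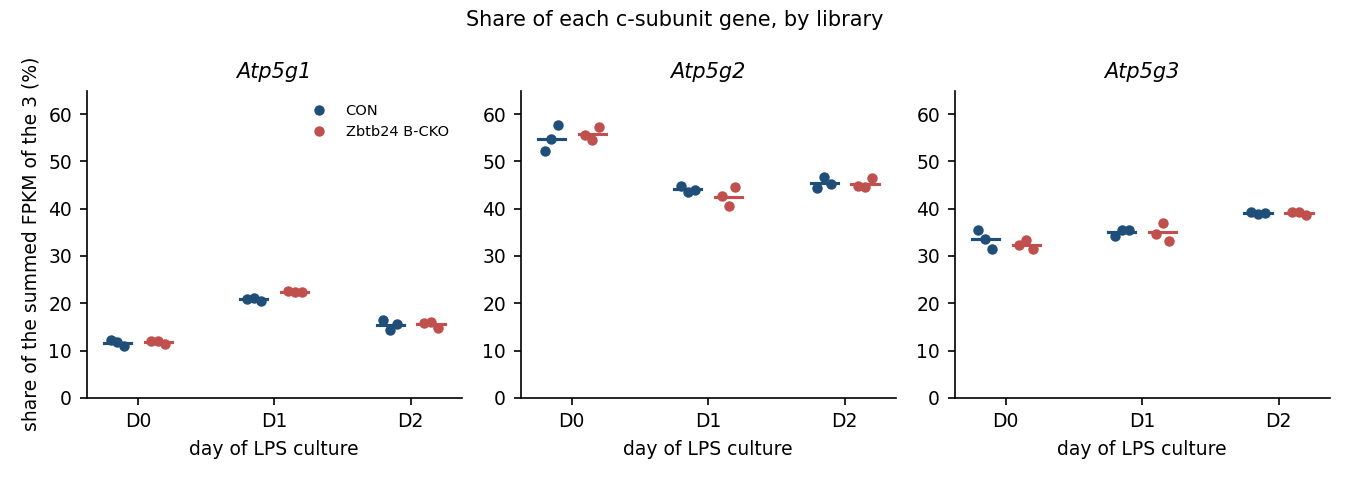
Share of *Atp5g1*, *Atp5g2* and *Atp5g3* in their summed FPKM (percent, vertical axis) in each library, by day and genotype; lines are group means. *Atp5g1* is lowest on D0 (mean 11.6% in CON), highest on D1 (20.9%) and in between on D2 (15.4%) in both genotypes.

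In complex I, *Ndufa3* had the highest mean level, with 103.32 to 130.68 FPKM in CON on D0 and 177.69 to 188.24 FPKM on D1 (log2 change 0.62 ± 0.09 SE, limma adjusted p = 0.0015). The largest rise was in *Ndufa12*, an accessory subunit. It was at 50.24, 43.08 and 33.74 FPKM in CON on D0, 179.12, 194.89 and 178.16 FPKM on D1, and 153.64, 158.47 and 145.82 FPKM on D2. Its log2 change was 2.11 ± 0.14 (SE, limma adjusted p = 5.16e-05), followed by -0.27 ± 0.05 (SE, adjusted p = 0.00424), a call that was lost in 1 fit of all 18 libraries (adjusted p = 0.185). The D1 libraries stood above those of both other days. *Ndufa5*, another accessory subunit, was at 19.07 to 26.68, 63.2 to 79.08 and 48.5 to 59.79 FPKM on the 3 days in CON.

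In complex II, whose 4 genes also serve the tricarboxylic acid cycle, the membrane anchor *Sdhd* and the flavoprotein *Sdha* moved to different extents. *Sdhd* went from 34.19 to 34.9 FPKM on D0 up to 101.33 to 105.77 FPKM on D1 in CON, a log2 change of 1.55 ± 0.05 (SE, limma adjusted p = 5.88e-06). *Sdha*, the subunit that oxidises succinate and had the highest level of the 4, went from 85.38 to 93.94 FPKM up to 111.18 to 117.54 FPKM, a log2 change of 0.34 ± 0.06 (SE, adjusted p = 0.00209). The levels of the 4 genes thus lay closer together on D1, at 73.37 to 114 FPKM in the means, than on D0, at 34.6 to 89.6 FPKM.

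In complex III, *Uqcr11*, a small subunit, rose most by D1, from 31.2 to 50.48 FPKM up to 138.65 to 160.3 FPKM in CON (log2 change 1.78 ± 0.19 SE, limma adjusted p = 0.00035). *Uqcrh*, the hinge protein near cytochrome c1 and the member of the complex with the highest mean level, was at 155.82 to 172.96 FPKM on D0, 166.62 to 181.43 FPKM on D1 and 220.2 to 238.29 FPKM on D2. It was not called in the first step and rose in the second, by 0.36 ± 0.05 (SE, adjusted p = 0.00109). The other 7 members that missed the test on D1 in CON were *Ndufa6* and *Ndufb11*, named here after their values were seen, and the 5 isoforms *Cox7a1*, *Cox4i2*, *Cox6b2*, *Cox8b* and *Ndufa4l2*. *Ndufb11* was at 98.81 to 107.42 FPKM on D0 and 104.65 to 112.63 FPKM on D1, and *Ndufa6* at 72.04 to 86.57 and 82.6 to 89.91 FPKM.

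In complex IV, the broadly used subunits rose on D1, led by *Cox7b*, which went from 26.41 to 34.58 FPKM up to 87.45 to 105.26 FPKM in CON (log2 change 1.64 ± 0.12 SE, limma adjusted p = 6.29e-05). *Cox4i1*, the broadly used form of subunit IV and the member of the complex with the highest mean level, rose in both steps. It was at 258.79, 259.51 and 245.35 FPKM on D0, 422.37, 395.61 and 366.19 FPKM on D1, and 544.24, 453.36 and 550.17 FPKM on D2 in CON. The 3 days did not overlap, although 1 of the D2 libraries lay nearer to those of D1. The log2 changes were 0.63 ± 0.07 (SE, adjusted p = 0.000371) and 0.38 ± 0.09 (SE, adjusted p = 0.012). The second call was lost without the libraries numbered 1 (adjusted p = 0.0711) or 3 (adjusted p = 0.131), and in B-CKO without those numbered 1 (adjusted p = 0.0927).

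The member that fell on D1 was *Cox7a2l*, a relative of subunit VIIa known as an assembly factor that joins complexes III and IV into supercomplexes. It was at 190.61, 194.69 and 202.76 FPKM in CON on D0, 109.92, 104.88 and 102.71 FPKM on D1, and 229.4, 202.17 and 219.88 FPKM on D2. In B-CKO it was at 200.57, 195.67 and 213.46, then 103.25, 106.7 and 111.13, then 229.3, 215.79 and 262.29 FPKM. The D1 libraries of both genotypes lay below all others, and those of D0 and D2 were near each other. The log2 change in CON was -0.88 ± 0.05 (SE, limma adjusted p = 3e-05) and then 1.03 ± 0.05 (SE, adjusted p = 3.73e-05), and in B-CKO -0.92 ± 0.06 and 1.13 ± 0.07. It was not called between D0 and D2. *Cox7a2*, the broadly used form of the same subunit, moved the other way on D1, from 42.12 to 48.5 FPKM up to 101.71 to 103.51 FPKM in CON (1.19 ± 0.07 SE).

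**Figure D4:**
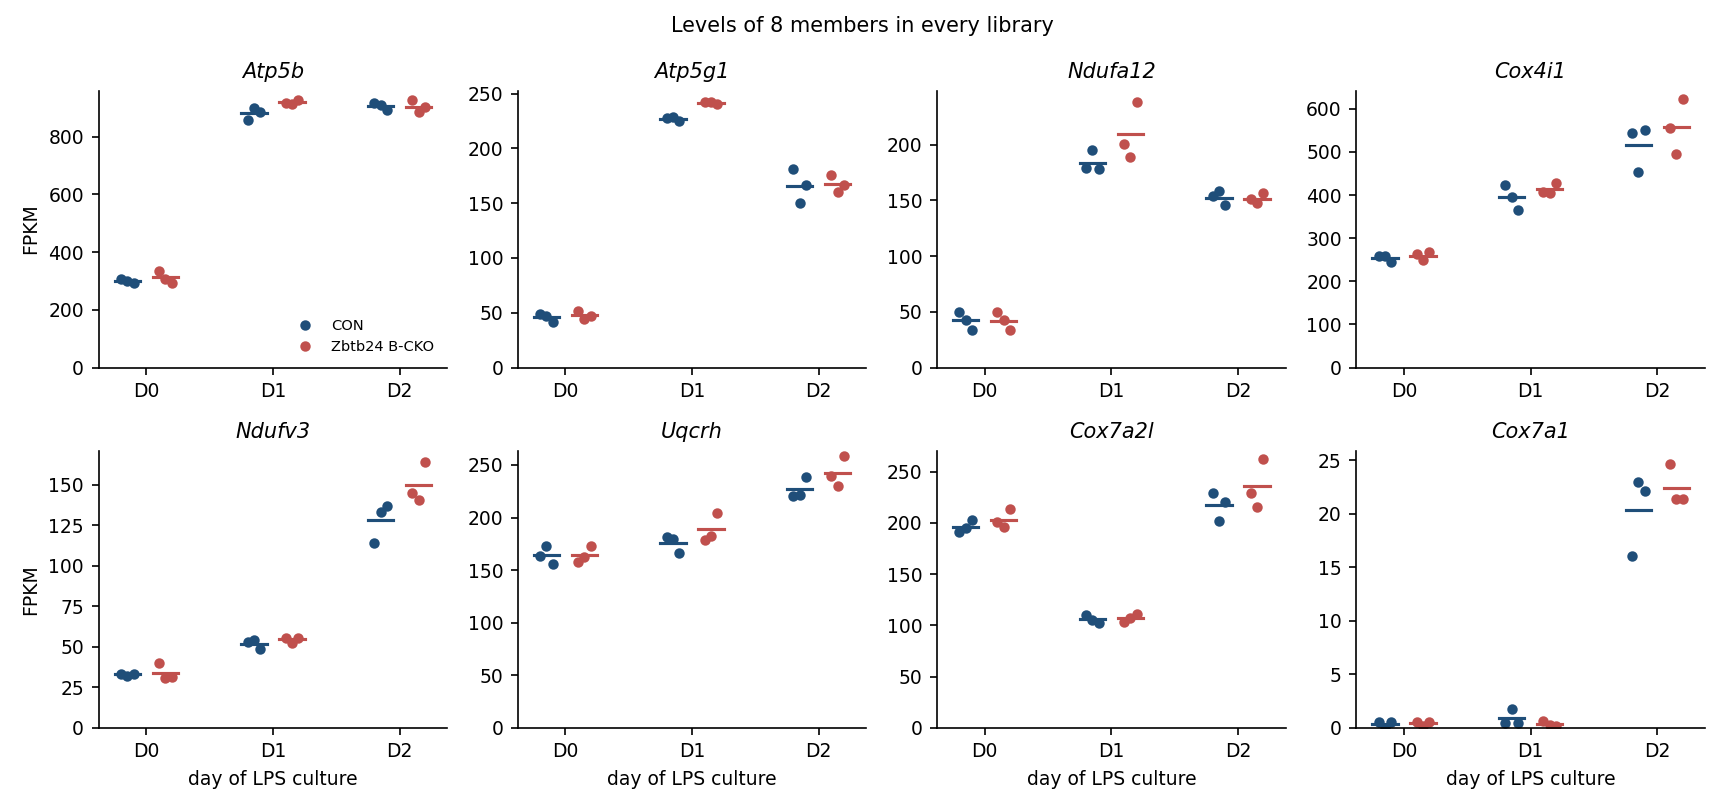
FPKM (vertical axes, each panel with its own scale from 0) of 8 members in each of the 18 libraries, by day and genotype; points are libraries and lines group means. *Atp5b* rises on D1 and holds, *Atp5g1* and *Ndufa12* are highest on D1, *Ndufv3* and *Cox7a1* are highest on D2, and *Cox7a2l* is lowest on D1 (102.71 to 111.13 FPKM).

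The second step was smaller and mixed. Between D1 and D2, 29 of the 83 members rose and 10 fell in CON, against 20.1% and 24.8% of all genes, and the median member change was 0.05 on the log2 scale against -0.00 over all genes. In B-CKO 24 rose and 14 fell, against 21.7% and 24.0% of all genes, with a median of 0.07. Rescaling the libraries to TPM turned the B-CKO split to 18 higher and 26 lower, beside 18.8% and 25.7% of all genes under TPM. Complex I had 13 higher and 7 lower in CON, complex II 1 and 0, complex III 1 and 1, complex IV 11 and 1, and complex V 3 and 1. Complex IV held the largest share of rising members in B-CKO as well, with 10 higher and 1 lower of 18. Of the risers in CON, 21 also rose in B-CKO, which is 72.4% of the CON list and 87.5% of the B-CKO list, and no member was called in opposite directions. The counts rested on the libraries used: without the libraries numbered 1 they were 15 higher and 7 lower in CON and 5 and 8 in B-CKO, and without those numbered 3 they were 14 and 10 in CON and 11 and 11 in B-CKO.

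In complex IV, part of the broadly used subunits rose in this step as well. Of its 11 broadly used subunits, 6 rose in CON and 0 fell, with a median of 0.19, and in B-CKO 5 rose and 0 fell. *Cox8a*, a small subunit present in most tissues, was at 376.99 to 393.09 FPKM on D1 and 491.76 to 495.6 FPKM on D2 (log2 change 0.35 ± 0.03 SE, limma adjusted p = 0.00029). None of the 5 genes of the F1 head was called in either direction. *Atp5j2*, a membrane subunit, rose most in complex V, from 223.74 to 244.83 FPKM up to 274.63 to 291.38 FPKM (0.29 ± 0.05 SE, adjusted p = 0.00262, and 0.0629 in 1 fit of all 18 libraries). *Ndufa5* fell most in complex I, by 0.42 ± 0.10 (SE, adjusted p = 0.0145) in CON and by 0.64 ± 0.04 in B-CKO. The CON call of *Ndufa5* was lost without the D1 library 3, the D2 library 1, the D2 library 3 or the libraries numbered 3 (adjusted p = 0.0518 to 0.154). *Uqcrq* fell in complex III, from 67.78 to 74.43 FPKM down to 59.01 to 64.55 FPKM (adjusted p = 0.0121), a call lost without the libraries numbered 1 or 2 (adjusted p = 0.0654 and 0.107) or in 1 fit of all 18 libraries (adjusted p = 0.0555).

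*Ndufv3*, an accessory subunit at the NADH-binding end of complex I, had the largest rise of its complex in this step. It was at 33.13, 32.31 and 33.4 FPKM on D0, 53.01, 54.5 and 48.55 FPKM on D1, and 114.42, 133.49 and 136.71 FPKM on D2 in CON. B-CKO cells were at 40.01, 30.71 and 31.49, then 55.61, 52.68 and 55.7, then 145.28, 140.99 and 164.38 FPKM. The days followed each other without overlap in both genotypes. The log2 change from D1 to D2 was 1.28 ± 0.08 (SE, limma adjusted p = 5.71e-05) in CON and 1.44 ± 0.06 (SE, adjusted p = 1.2e-05) in B-CKO.

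Over both days together, 81 of 83 members were higher on D2 than on D0 in CON and none was lower, against 26.5% and 30.3% of all genes, with a median of 1.17. In B-CKO these were 80 higher and 0 lower, against 27.0% and 30.7%, with a median of 1.18. Of the members in CON, 43 rose in the first step with no call in the second, 21 rose in both, 10 rose and then fell, 7 rose in the second alone, 1 fell and then rose, and 1 was called in neither. Since these comparisons share libraries, their values are given side by side. With the test limited to genes at a mean of at least 1 FPKM, 38.9% of genes were higher on D1 than on D0 and 26.7% higher on D2 than on D1 in CON, which is the background for the 78 members above that level.

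Complex IV has 6 isoforms used mainly in other tissues. Of these, 1 rose by D1 in CON (median log2 change 0.04), beside 26.7% of all genes, and between D1 and D2 there were 4 that rose and 1 that fell, beside 20.1% and 24.8%. *Cox7a1*, the form of subunit VIIa found mainly in heart and skeletal muscle, was at 0.52, 0 and 0.54 FPKM in CON on D0, 0.45, 1.8 and 0.45 FPKM on D1, and 16.03, 23.01 and 22.1 FPKM on D2. In B-CKO it was at 0.52, 0.18 and 0.53, then 0.6, 0.3 and 0.15, then 24.65, 21.34 and 21.36 FPKM. All 6 libraries of D2 stood far above the other 12. The log2 change from D1 to D2 was 3.55 ± 0.28 (SE, limma adjusted p = 0.000134) in CON and 4.13 ± 0.13 (SE, adjusted p = 5.92e-06) in B-CKO, the largest of any member. Of the FPKM of *Cox7a1* and *Cox7a2* together, *Cox7a1* gave 0.82% on D0, 0.862% on D1 and 14.8% ± 2.71 (SD, n = 3) on D2 in CON, and 15.9% ± 0.872 on D2 in B-CKO.

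The other isoforms stayed near or below 3 FPKM. *Cox6a2*, the muscle form of subunit VIa, was at 0.1, 0.19 and 0.1 FPKM on D0, 1.84, 2.84 and 2.09 FPKM on D1, and 0.33, 0.25 and 0.35 FPKM on D2 in CON, a rise of 1.52 ± 0.12 and a fall of 1.30 ± 0.11 on the log2 scale. It was thus higher in the D1 libraries than in those of the other days, while the broadly used *Cox6a1* lay at 390.96 to 424.6 FPKM on D1. *Cox4i2*, the form of subunit IV used in lung and low oxygen, was listed at 0 in all 6 libraries of D0, at 0 or 0.08 FPKM on D1, and at 1.46, 0.78 and 2.36 FPKM in CON and 0.77, 1.41 and 1.75 FPKM in B-CKO on D2. *Ndufa4l2*, a paralog of *Ndufa4* induced in low oxygen, was listed at 0 to 0.07 FPKM on D0 and D1 and at 0.17 to 0.39 FPKM on D2, against 245.21 to 297.91 FPKM for *Ndufa4* on D1. *Cox6b2*, the testis form, was at 0.33 to 0.98 FPKM on D0 and D1 and at 0.91 to 1.83 FPKM on D2, beside 97.86 to 143.66 FPKM for *Cox6b1* on D0. *Cox8b*, the muscle form of subunit VIII, was listed at 0 in 15 of the 18 libraries and at 0.15 to 0.31 FPKM in the others. The depth behind these low values is not known, and at such values a few fragments can decide a call.

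The second question was whether loss of *Zbtb24* changed the respiratory chain. No member was called on any day, with 0 of 82 tested on D0 and 0 of 83 on D1 and on D2. Over all genes, limma called 0% higher and 0% lower in B-CKO on D0, 0.0132% and 0.0861% on D1 (2 and 13 genes), and 0.00657% and 0.0394% on D2 (1 and 6 genes). The D0 test thus did not call *Zbtb24* itself, at 37.05 to 49.62 FPKM in CON and 10.53 to 14.33 FPKM in B-CKO. A lack of calls on D0 therefore says little about the members. At an unadjusted p under 0.05 there were 313, 2463 and 1172 genes on the 3 days. By the same measure, 0 members were higher and 0 lower on D0, 11 and 0 on D1, and 1 and 0 on D2, and in the fit with the replicate block 0 and 0, 16 and 1, and 6 and 0, beside 891, 2686 and 1437 of all genes. The median member difference, B-CKO minus CON on the log2 scale, was -0.00 on D0, 0.05 on D1 and 0.04 on D2, with the same signs under TPM and median-ratio scaling.

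The difference was above 0 for 38 of 82 members on D0, 65 of 83 on D1 and 63 of 83 on D2, that is 46.3%, 78.3% and 75.9%, beside 48.2%, 46.9% and 45.2% of all genes tested. The sums over all members overlapped between the genotypes on each day, while on D1 those of complex II (384 to 403 FPKM in CON, 405 to 420 FPKM in B-CKO) and complex III (1019 to 1111 and 1112 to 1162 FPKM) did not. No member passed the test, so these shares and sums are a description. Marker lists also differed by genotype on these days. The B cell list summed to 2430 to 2615 FPKM in CON and 2120 to 2198 FPKM in B-CKO on D1, and overlapped on D2. The T cell list summed to 12.6 to 15.4 FPKM in CON and 9.93 to 11.6 FPKM in B-CKO on D1, and 13.0 to 13.4 and 9.06 to 10.4 FPKM on D2. The myeloid list summed to 14.1 to 16.8 and 9.08 to 10.3 FPKM on D1, and 7.82 to 14.2 and 5.32 to 6.88 FPKM on D2. The erythroid list went the other way on D2, at 9.67 to 9.93 FPKM in CON and 11.55 to 16.27 FPKM in B-CKO. Of its 6 genes, 2 to 4 were at 0 in these CON libraries and 3 to 5 in those of B-CKO. Its sums on D2 thus rest on few genes and are no measure of erythroid cells. On D1 the immediate early genes summed to 175.61 to 181.56 FPKM in CON and 155.29 to 171.1 FPKM in B-CKO. The part of these lists in the member differences was not tested. On D1 the 3 B-CKO libraries lay above the 3 CON libraries, without overlap, for 15 members (18.1%) and below them for 1, against 8.43% and 11.7% of all genes. On D2 this was so for 4 and 1, against 4.89% and 6.24%, and on D0 for 0 and 0, against 1.92% and 1.94%. *Atp5g1* had the smallest p on D1, with 242.81, 242.19 and 240.69 FPKM in B-CKO and 227.47, 228.73 and 225.13 FPKM in CON, a difference of 0.09 ± 0.02 (SE, limma adjusted p = 0.131). *Cox7c*, a small subunit of complex IV, was at 268.45, 275.36 and 272.35 FPKM against 237.89, 254.43 and 221.6 FPKM, a difference of 0.19 ± 0.05 (SE, adjusted p = 0.141). *Cox6c*, another such subunit, was at 169.64, 179.89 and 175.59 FPKM against 164.75, 157.53 and 146.64 FPKM, a difference of 0.16 ± 0.05 (SE, adjusted p = 0.165). Under an alternative added after the data were seen, which blocked on the replicate number and tested genes at a mean of at least 1 FPKM, 4 members were called higher on D1 and 0 lower, *Cox7c* among them (adjusted p = 0.0339), beside 2.14% and 5.11% of the 9711 genes in that fit, while that filter alone called 0.

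On D2, *Ndufv3* had the smallest p, with 145.28, 140.99 and 164.38 FPKM in B-CKO and 114.42, 133.49 and 136.71 FPKM in CON, a difference of 0.23 ± 0.09 (SE, limma adjusted p = 0.581). Next were *Cox7b* at 0.09 (adjusted p = 0.662) and *Ndufs5*, an accessory subunit of complex I, at 0.11 (adjusted p = 0.681). On D0 the smallest p were those of *Cox8b*, *Sdhd* and *Sdha*, with differences of -0.08, -0.10 and -0.09, all at an adjusted p of 1. None of these was past the test.

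The precision of the comparison differed between days. It is given for the 78 members at a mean of at least 1 FPKM, as ratios of FPKM + 1. For the 5 members below, such a ratio understates the change of the FPKM itself. Their intervals were not all narrow: over all 83 members tested on D2, *Cox4i2*, 1 of these 5, had both the lowest lower bound (0.611) and the highest upper bound (1.406). The 95% intervals of the genotype difference lay within 1.25-fold in both directions for 42 members on D0, 72 on D1 and 75 on D2, and within 1.5-fold for 76, 77 and 78. These are from the fit without pairing; on D0, where same-numbered libraries of the genotypes deviated together, the fit with the replicate block put 64 of 78 within 1.25-fold and 78 within 1.5-fold, again with 0 called. The members at the ends of this range are named after their values were seen. Among the 78, the highest upper bound on D0 was 1.71 for *Ndufab1*, the acyl carrier subunit of complex I. It was 1.41 for *Uqcr10*, a small subunit of complex III, on D1 and 1.38 for *Cox7a1* on D2. The lowest lower bound among the 78 was 0.612 for *Atp5md*, a membrane subunit of ATP synthase, on D0. On D1 it was 0.475 for *Cox7a1*, when its level was itself near or below 1 FPKM. On D2 it was 0.809 for *Ndufa11*, an accessory subunit of complex I. The median SD of a member between mice was 0.143 in CON and 0.138 in B-CKO on D0, and 0.048 to 0.084 on the later days.

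**Figure D5:**
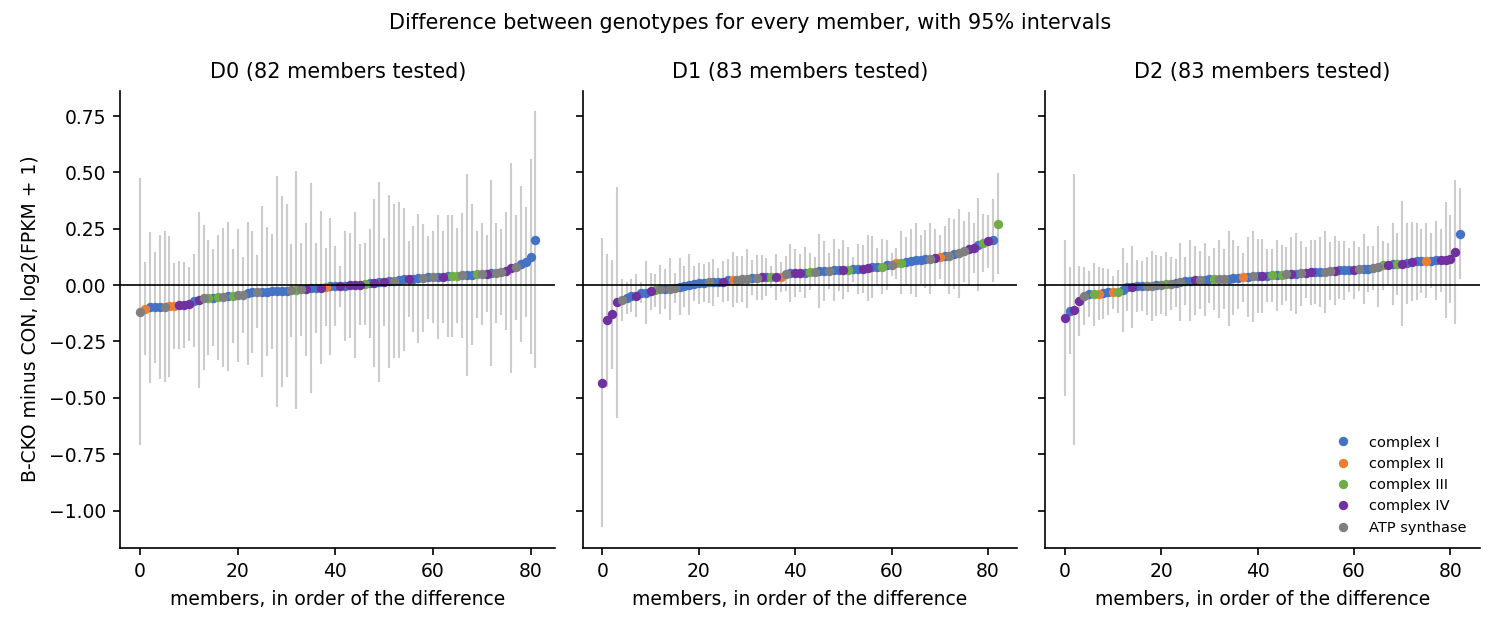
Difference between B-CKO and CON for each member (log2(FPKM + 1) scale) by day; points are members in order of the difference, coloured by complex, and lines are unadjusted 95% intervals. The points centre on -0.00 on D0, 0.05 on D1 and 0.04 on D2, and none was called by limma.

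The genotypes were then compared in their response to LPS, as an interaction of genotype and day. No member and no gene was called (0% of 16182, 15844 and 16257 genes for D1 against D0, D2 against D1 and D2 against D0). At an unadjusted p under 0.05 this gave 1 member for the first, with a larger rise in B-CKO, 1 for the second, with a lower change in B-CKO, and 0 for the third, beside 467, 1158 and 422 of all genes. The member medians were 0.05, -0.01 and 0.04. Precision was limited in the comparisons that include D0. Intervals of the interaction are given as ratios of FPKM + 1. For D1 against D0 they were 0.765 to 1.81 for *Atp5md* and 0.612 to 1.379 for *Ndufab1*. That of *Atp5b* was narrower, at 0.893 to 1.129. On D0, same-numbered libraries of the genotypes deviated together, and these fits did not pair them. The lack of calls therefore does not show equal responses to LPS. The ranking of the members by their response was close in the 2 genotypes, which share no libraries. Over the 78 members at a mean of at least 1 FPKM, Pearson's r between the CON and B-CKO changes was 0.98 (Spearman's rho 0.976) from D0 to D1 and 0.991 (0.931) from D1 to D2, beside 0.992 and 0.964 over all genes at that level. These are correlations across genes, which are not independent replicates.

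Genes that work with the chain were taken from fixed lists, to be read beside 26.7% of all genes higher and 30.7% lower on D1 in CON, and 20.1% and 24.8% on D2 against D1. Of 47 assembly factors, 35 rose and 0 fell on D1 in CON (median log2 change 0.69), and on D2 against D1 there were 2 that rose and 23 that fell. *Uqcc2*, which helps make cytochrome b of complex III, went from 31.6 to 106 to 90.3 FPKM in the CON means, and *Ndufaf4*, an assembly factor of complex I, from 5.99 to 17.8 to 8.70 FPKM. The 5 genes for electron carriers outside the naming rule all rose on D1, and 3 of them fell on D2. *Cycs*, cytochrome c, was at 19.5, 79.8 and 62.1 FPKM on the 3 days (log2 changes 1.98 and -0.36), and *Cyc1*, cytochrome c1 of complex III, at 58.3, 180.3 and 144.9 FPKM. Of 13 genes of the tricarboxylic acid cycle, 12 rose on D1 (median 0.94), and 0 rose and 9 fell on D2. *Idh3a*, a subunit of isocitrate dehydrogenase, rose by 1.74 and *Mdh2*, mitochondrial malate dehydrogenase, by 1.36. Beside these lists the members held 29 risers and 10 fallers in the second step. In B-CKO the assembly factors gave 35 higher and 1 lower on D1 and then 2 and 24. No gene of these lists was called between the genotypes.

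Of 14 regulators of nuclear and mitochondrial respiratory genes, 4 rose and 5 fell on D1 in CON, and 3 rose and 6 fell on D2 against D1, beside the shares of all genes given above for each step. *Pprc1*, a coactivator of the PGC-1 family induced in growing cells, was at 16.9, 37.3 and 17.7 FPKM on the 3 days (log2 changes 1.11 and -1.04). *Nrf1*, nuclear respiratory factor 1, was at 18.9, 15.4 and 20.1 FPKM (-0.27 and 0.36). *Esrra*, an estrogen-related receptor that acts on respiratory genes in muscle, fell by 0.52 in the first step. *Myc* was at 229.9, 113.2 and 52.9 FPKM in the means, a fall by 1.00 and then by 1.08. In CON the immediate early genes summed to 2955 to 4477 FPKM on D0 and 176 to 182 FPKM on D1. Any part of cell handling in the D0 level of *Myc* was not tested. *Tfam*, which packages mitochondrial DNA, had a change of 0.16 that did not pass the test.

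Some features were shared that the naming rule did not use. The members were spread over 19 chromosomes. Their transcripts were short, with a median spliced length of 732 nt (321.5 to 2900 nt) against 2586.5 nt for the other genes of the table, and 68.7% of members against 8.90% of other genes were under 1000 nt. Length showed little relation to the response within the members: Spearman's rho between spliced length and the CON change was 0.075 from D0 to D1 and -0.171 from D1 to D2 over 78 members, as a description.

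Promoters were read for members that moved in different ways, to show the sequence beside the pattern. RefSeq windows (GRCm38.p6) from 250 bases before to 50 after the start were held for 68 of the 83 members. The 250 bases before the start are printed 5′ to 3′ on the strand of the gene, with motif matches on either strand in capitals. They belong to *Atp5g1*, highest on D1 (chr11:96075632-96075881, minus strand), *Cox6a1*, which rose on D1 and held an NRF1 core (chr5:115348959-115349208, minus strand), *Cox7a2l*, which fell on D1 (chr17:83514334-83514583, minus strand), and *Cox7a1*, which rose on D2 (chr7:30183921-30184170, plus strand).
Atp5g1: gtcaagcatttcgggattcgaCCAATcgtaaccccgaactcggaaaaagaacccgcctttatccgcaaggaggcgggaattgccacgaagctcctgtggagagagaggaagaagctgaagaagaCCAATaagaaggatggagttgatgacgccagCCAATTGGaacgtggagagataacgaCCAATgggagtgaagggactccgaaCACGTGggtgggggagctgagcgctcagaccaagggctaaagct
Cox6a1: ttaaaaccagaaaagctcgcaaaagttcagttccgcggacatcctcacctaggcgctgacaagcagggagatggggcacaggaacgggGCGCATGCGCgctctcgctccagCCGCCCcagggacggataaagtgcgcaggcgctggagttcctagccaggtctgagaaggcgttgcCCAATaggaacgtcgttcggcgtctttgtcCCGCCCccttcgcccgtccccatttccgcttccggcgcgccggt
Cox7a2l: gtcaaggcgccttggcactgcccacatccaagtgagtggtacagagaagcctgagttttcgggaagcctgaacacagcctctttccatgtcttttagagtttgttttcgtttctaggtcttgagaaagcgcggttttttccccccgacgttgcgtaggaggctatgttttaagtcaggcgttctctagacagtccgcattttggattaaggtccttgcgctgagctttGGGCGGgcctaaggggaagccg
Cox7a1: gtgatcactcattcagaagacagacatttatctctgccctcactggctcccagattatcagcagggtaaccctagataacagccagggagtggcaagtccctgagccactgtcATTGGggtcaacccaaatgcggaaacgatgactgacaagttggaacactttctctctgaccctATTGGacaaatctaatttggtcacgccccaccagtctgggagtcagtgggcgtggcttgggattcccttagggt
The *Atp5g1* window held 5 CCAAT matches, of which a pair on opposite strands overlap, and 1 E box. The *Cox6a1* window held the NRF1 core on both strands, overlapping, with 1 CCAAT match and 2 GC boxes. *Cox7a2l* had 1 GC box, and *Cox7a1* had 2 CCAAT matches, both on the minus strand.

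The letters were searched on both strands in all windows of 300 bases. The NRF1 core GCATGCGC stood in 10 of 68 members (14.7%), in 4.98% of the 13083 other genes of the table and in 3.05% of all 27025 genes. The YY1 motif AAGATGGCG stood in 7 (10.3%), against 2.79% and 1.64%, and the ERR motif AAGGTCA in 8 (11.8%), against 4.18% and 5.38%. The ETS motif CCGGAAGT gave 7.35% of members and 7.35% of other genes, CCAAT 42.6% and 42.4%, the E box CACGTG 8.82% and 10.5%, the CRE TGACGTCA 5.88% and 3.12%, and the GC box GGGCGG 41.2% and 60.8%. GC boxes within a longer GC run and the CRE with other motifs may overlap. A match describes these letters and is no evidence of binding.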

How the data were processed

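RNA of purified splenic B cells from 18 samples was sequenced as paired ends. Per the study's methods, the authors mapped reads to mm10 with bowtie2, used Cufflinks and RSEM, and deposited 1 table of FPKM with 2 decimals. The submitters' processing notes also name BWA and DESeq2, and the sequencer differs between labels and methods. The annotation and tool versions are not given in the sources used here. FPKM hold no counts, so read depth is unknown, no count test was used, and 3 mice per group limit the precision. All value columns were mapped to samples. The authors' FPKM were tested as log2(FPKM + 1) with limma 3.58.1 (lmFit and eBayes with trend, R 4.3.3) on genes above 0 in any library of the fit, with Benjamini-Hochberg adjustment over all genes and a threshold of 0.05. There were 12 comparisons: genotype on each day, days within each genotype, and their interactions, each fitted on its own libraries. Python 3.11.15 with pandas 2.3.3, numpy 2.4.6 and matplotlib 3.10.9 did the rest. Symbols came from RefSeq (16512 of 16545 IDs matched). *Ndufa4* was counted with the broadly used subunits of complex IV, where its protein is found, despite its symbol.

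Members and lists were chosen with earlier results of these data known. Genes were named by rule: the highest mean level per complex, the largest called rise and fall per complex in the CON day comparisons, the 3 smallest p per day between genotypes, tissue isoforms, members under a mean of 1 FPKM, and *Zbtb24* and *Cdca7*. No rule was set for the genes named from the pathway lists, which were chosen as examples after their values were seen. The 3 libraries of a group are separate mice by the methods. The level of 1 further check gene is not reported here.

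Equal replicate numbers were checked for pairing by the correlation of their deviations from group means over 9997 genes. CON and B-CKO libraries of D0 deviated together (r = 0.854, 0.468 and 0.789), as did B-CKO D1 and D2 (0.126, 0.183 and 0.117). Pairing was taken to need every r above 0.1, which those of D1 (0.104, 0.200 and 0.0910) missed narrowly, though all were positive, and those of D2 (-0.0372, 0.216 and 0.230) missed too. The fit was tested on simulated data: with changes of 1.5-fold it recovered 100% of 62 genes for genotype on D1 (15010 genes tested) and 58.2% of 55 for D1 against D0 in CON (15482 genes), and for the interaction of that step 35.1% of 57 (16063 genes). False calls were 9 of 204, 3 of 101 and 14 of 103. Changed genes were drawn above a level floor, with independent noise and a spread smoothed over genes of similar level. Deviations shared by same-numbered libraries were not simulated, so these shares may overstate recovery in the real data.

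Alternatives were a pseudocount of 0.1, a mean of at least 1 FPKM, TPM, median-ratio scaling, a replicate block, 1 fit of all 18 libraries, and leaving out each library or replicate number. The block joined with the filter was added after seeing the data.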

Additional observations from a re-analysis of the deposited data

How the results depend on the processing

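The counts of members called kept within 1.5 times of their values in 81 of 84 fits under other settings and in 122 of 126 with libraries left out, and no named member changed direction among its calls. The exceptions were the step from D1 to D2 and genotype on D1. With 1 fit of all 18 libraries it gave 20 members in CON (15 higher, 5 lower) in place of 39, and 22 in B-CKO (14 higher, 8 lower) in place of 38. Leaving out libraries or replicate numbers gave 22 to 38 in CON and 13 to 47 in B-CKO. The lowest counts came without the libraries numbered 1 (22 and 13) and without those numbered 3 (24 in CON, 14 higher and 10 lower, and 22 in B-CKO, 11 higher and 11 lower), where fewer samples were tested. The cause of the other changes was not tested. Under median-ratio scaling the split was 33 higher and 8 lower in CON and 23 and 12 in B-CKO, and TPM gave 24 and 13 in CON. Leaving out libraries left 73 to 75 calls from D0 to D1 in CON and 72 to 76 in B-CKO, and 77 to 81 and 77 to 80 from D0 to D2. TPM lowered the median member change to 0.96 (CON) and 0.97 (B-CKO) from D0 to D2 and to 0.99 (B-CKO) from D0 to D1. With the replicate block, 35 members were called from D1 to D2 in CON (26 higher, 9 lower) and 32 in B-CKO (20 higher, 12 lower), 75 from D0 to D1 in CON, and 0 between the genotypes on each day, so it moved no count by more than 1.5 times. The block with the filter on the mean gave 4 members for genotype on D1 in place of 0. Among named members, calls were lost most often for *Atp5g3* from D1 to D2 in CON (10 alternatives), *Cox6b2* from D0 to D2 (10 in CON, 9 in B-CKO), *Cox6a1* from D1 to D2 in B-CKO (9), and *Cox6a2* from D0 to D2 in B-CKO (7). In the fit of all 18 libraries the CON calls from D1 to D2 of *Ndufa12* (adjusted p = 0.185), *Atp5j2* (0.0629) and *Uqcrq* (0.0555) were lost as well. Without read counts, what depth limits at the lowest levels could not be given.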
